A study of Mus musculus with 17 samples.

Results

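The genes described here are 6 genes of thyroid hormone signalling in mouse hepatocytes, out of 55536 genes in the RNA-seq tables, chosen by name for their roles: the deiodinase Dio1, the transporter Slc16a10, the receptors Thra and Thrb, and the response genes Klf9 and Hr. The 6 WRE-edited libraries came from hepatocytes whose genome had been edited at a site bound by β-catenin that lies upstream of DLK1/DIO3 (condition DLK1DWRE in the labels). They were set against 5 Rosa26-edited libraries, in which a locus widely used as a neutral site had been edited instead (condition ROSA26). All animals of both groups were C57BL/6J mice of the ApcDHep genotype, 3 months old, so the hepatocytes of the controls too had lost Apc, the brake on β-catenin. All received AAV8 carrying SaCas9 for 1 month and tamoxifen (2 mg, 7 days), and hepatocytes were freed by collagenase perfusion. The library names end in a code, taken here as a run although the labels do not define it. Run r770 contained 3 libraries of each group, and run r595 contained 1 WRE-edited and 2 Rosa26-edited libraries. The remaining 2 WRE-edited libraries formed run r711, without a control. The sources used here do not give the share of hepatocytes that carried an edit or whether each library came from its own animal, and p-values thus reflect variation among libraries, which may be technical. The names of WRE-edited 4 (r711) and WRE-edited 6 (r595) carry the same number, and whether they share an animal is not stated.

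Thyroid hormone reaches hepatocytes mainly as the prohormone thyroxine. Membrane carriers such as the one encoded by Slc16a10 pass iodothyronines across the cell membrane, and Dio1, a selenoenzyme abundant in liver, removes an outer-ring iodine to give the active hormone triiodothyronine. Its receptors, encoded by Thra and Thrb, sit on DNA as partners of the retinoid X receptors, recruit corepressors without hormone and coactivators with it, and Thrb is the main form in liver. Klf9 and Hr, a transcription factor and a nuclear corepressor, are response genes of these receptors. The DLK1/DIO3 locus itself holds Dio3, the deiodinase that inactivates the hormone.

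The promoters of Thrb, Dio1 and Thrsp are shown because they belong to the main liver receptor, to the activating enzyme and to the response gene with the smallest p below. Sequences and starts came from RefSeq (GRCm38.p6, 250 bases before to 50 after each start, 5′ to 3′ on the gene's strand), and 4 of the 6 genes matched, with 5 windows. Capitals mark the half-site AGGTCA that thyroid hormone receptors can bind, or its reverse complement TGACCT.
Thrb, chr14:17660710-17661009, plus strand: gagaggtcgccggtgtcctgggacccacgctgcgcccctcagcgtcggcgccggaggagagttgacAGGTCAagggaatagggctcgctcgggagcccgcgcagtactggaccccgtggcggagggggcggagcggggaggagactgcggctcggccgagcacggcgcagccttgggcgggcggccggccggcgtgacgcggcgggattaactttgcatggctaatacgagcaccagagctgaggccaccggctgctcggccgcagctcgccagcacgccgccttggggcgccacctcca
Dio1, chr4:107307119-107307418, minus strand: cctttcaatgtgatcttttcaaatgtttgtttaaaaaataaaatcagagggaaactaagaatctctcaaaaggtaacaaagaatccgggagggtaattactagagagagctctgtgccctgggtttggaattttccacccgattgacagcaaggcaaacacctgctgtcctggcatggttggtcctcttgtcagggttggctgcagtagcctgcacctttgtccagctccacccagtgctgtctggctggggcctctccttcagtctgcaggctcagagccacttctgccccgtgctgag
Thrsp, chr7:97417501-97417800, minus strand: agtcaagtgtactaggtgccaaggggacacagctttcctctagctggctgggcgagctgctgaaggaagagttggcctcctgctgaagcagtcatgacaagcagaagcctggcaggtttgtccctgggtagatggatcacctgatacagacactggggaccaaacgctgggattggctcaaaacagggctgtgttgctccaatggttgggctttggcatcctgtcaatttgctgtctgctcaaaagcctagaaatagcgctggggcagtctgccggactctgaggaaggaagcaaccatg
The upstream window of Thrb held 1 half-site, which starts at position -184 from the start site. The second Thrb window and those of Dio1, Klf9, Slc16a10 and Thrsp held 0, and 16.3% of the 32851 windows in the table held at least 1 on either strand. The direct repeat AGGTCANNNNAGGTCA, which contains the half-site, was in 0 of these windows and in 5 of all windows on either strand (0.0152%). No match says only that these letters are not in this window. The upstream Thrb window (GC content 72.7%, 37 CpG), Slc16a10 (65.3%, 26 CpG) and Klf9 (63.3%, 28 CpG) lay above the median window (52.7%, 7 CpG). Dio1 (49.7%, 3 CpG) and the second Thrb window (46.0%, 4 CpG) lay below it. The gene bodies are on chromosome 4 for Dio1 (107291465 to 107307168), chromosome 10 for Slc16a10 (40033532 to 40142270), chromosome 11 for Thra (98740776 to 98769006), chromosome 14 for Thrb (17659225 to 18040097) and Hr (70554056 to 70573548), and chromosome 19 for Klf9 (23141226 to 23168129).

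The 6 genes spanned a wide range of levels. In TPM, the deposited unit that corrects for transcript length and so allows genes to be set side by side, Slc16a10 had a median of 32.5 (18.1 to 40.6 over 11 libraries) and Klf9 a median of 9.60 (4.53 to 17.1). Thrb had a median of 5.69 TPM (2.85 to 9.17) and Dio1 one of 5.28 (1.88 to 15.1). Thra had 2.04 TPM (1.32 to 2.90) and Hr 0.09 (0.04 to 0.57). Within libraries Slc16a10 was above Klf9 in 11 of 11, Klf9 above Thrb in 11 of 11, and Thra above Hr in 11 of 11. Dio1 was above Thra in 10 of 11. Thrb and Dio1 had no fixed order, with Thrb the higher in 6 of 11 libraries. Hr was close to the limit of detection at this depth, with 9 to 94 expected counts per library, while the other genes had from 100 (Thra) to 6875 (Slc16a10).

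**Figure D1:**
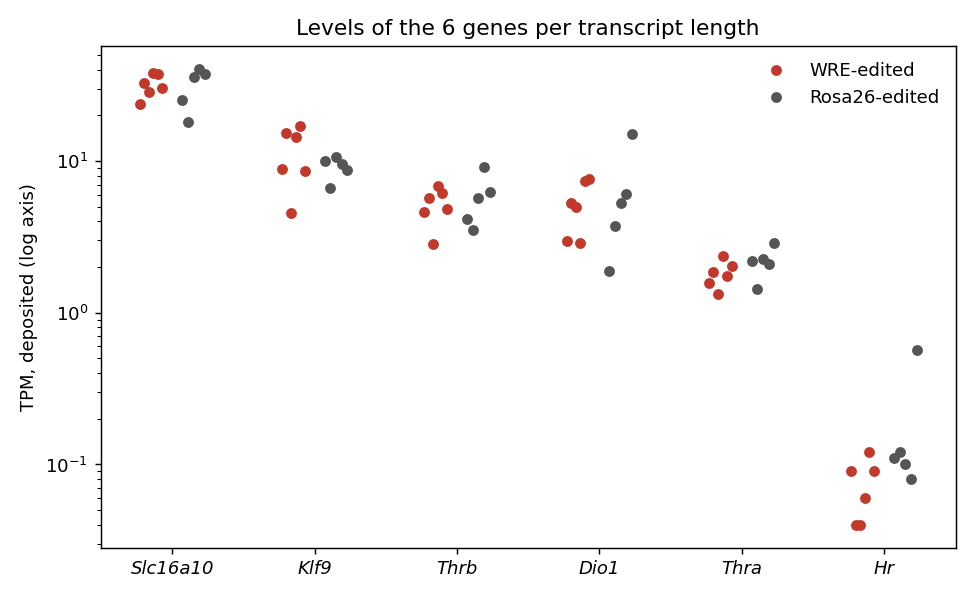
Deposited TPM (log axis) of the 6 genes, 1 point per library, with WRE-edited libraries left of Rosa26-edited libraries for each gene. The genes fall from Slc16a10 (median 32.5) to Hr (median 0.09), the points of both groups overlap for each gene, and a single Rosa26-edited library lies high for Hr (0.57).

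Depth ran from 20727036 to 38935135 expected counts per library. In the 3 libraries of r595 mitochondrial ribosomal RNA made up 2.29% to 3.00%, against 19.0% to 29.1% in the other 8. Rian, a long non-coding RNA of the DLK1/DIO3 locus, was the 1 gene of 14393 that edgeR called between the groups. It is thus no independent check of the edit, and its level does not give the share of edited cells. Rian averaged 74.4 ± 27.1 CPM (SD, n = 6) in WRE-edited and 283 ± 97.7 CPM (SD, n = 5) in Rosa26-edited libraries. CPM are normalised read counts scaled to library size with TMM factors. On the log2 scale Rian differed by -2.30 ± 0.26 (SE, adjusted p = 0.0188 in edgeR). Leaving out 1 library at a time gave -2.45 to -2.11, and the adjusted p passed 0.05 without WRE-edited 2, 3, 4, 5 or 6 or Rosa26-edited 2 (0.0528 to 0.317). Meg3, Rtl1 and Mirg, also of the locus, had log2 fold changes of -2.23 ± 0.45, -2.46 ± 0.44 and -2.27 ± 0.47 (SE). They did not pass in edgeR (adjusted p = 0.266, 0.213 and 0.281) and were called by DESeq2 (adjusted p = 0.00220, 8.3e-07 and 0.00336). The 10 hepatocyte markers summed to 52637 to 68455 CPM in WRE-edited and 53281 to 66895 CPM in Rosa26-edited libraries, and 0 of them was at 0. Markers of other cells were present in both groups. The 8 macrophage markers summed to 235 to 325 CPM in WRE-edited and 219 to 798 CPM in Rosa26-edited libraries, and the 10 stellate cell and fibroblast markers to 43.8 to 113 CPM against 77.4 to 108 CPM. In bulk RNA, fewer cells of a type and less RNA per cell cannot be told apart.

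The comparison asked whether editing the binding site moved thyroid hormone genes. Of the 6 genes 0 passed edgeR's quasi-likelihood test (run as a term, p-values adjusted over 14393 genes, threshold 0.05), where 0.00695% of all genes tested passed. At an unadjusted p under 0.05 there were 0 of 6, where 10.1% of all genes were, and DESeq2 called 0 of 6 and 0.6% of genes. Of the 6, 3 had a positive and 3 a negative log2 fold change, with a median of 0.02 against 0.01 over all genes tested. Within r770 the groups overlapped for every one of the 6 genes, where 7.64% of all genes did not overlap (3.29% higher and 4.34% lower).

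Dio1 varied most between libraries among the genes with ample counts. Its values in r770 were 7.80, 11.9 and 13.9 CPM in WRE-edited and 4.70, 9.70 and 9.42 CPM in Rosa26-edited libraries. In r595 it had 17.7 CPM in the WRE-edited library and 10.5 and 27.8 CPM in the Rosa26-edited libraries, and in r711 5.85 and 13.3 CPM in the WRE-edited libraries. The highest value was in Rosa26-edited 5 and the lowest in Rosa26-edited 1, so the Rosa26-edited range enclosed the WRE-edited one. The means were 11.8 ± 4.32 CPM in WRE-edited (SD, n = 6) and 12.4 ± 8.87 CPM in Rosa26-edited libraries (SD, n = 5). With the run as a term the log2 fold change of Dio1 was 0.32 ± 0.36 (SE; 95% interval -0.47 to 1.10; edgeR adjusted p = 0.759). It was 0.51 ± 0.39 within r770 and -0.11 ± 0.58 within r595. Without Rosa26-edited 5 the log2 fold change was 0.57, and without Rosa26-edited 1 it was 0.11.

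The other deiodinases were barely detected. Dio2, which also activates the hormone, had 0 counts in each of the WRE-edited libraries and 1 count over the Rosa26-edited ones, in Rosa26-edited 2. Dio3, on chromosome 12 at 110279230 to 110281097 within the DLK1/DIO3 locus, had 1, 2, 1, 3, 1 and 3 counts in the WRE-edited libraries and 2, 1, 0, 1 and 0 in the Rosa26-edited libraries. Both were below the filter on low counts, and a difference was not detectable at this depth.

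Slc16a10, which carries thyroid hormone and aromatic amino acids, was the steadiest of the 6 genes. It had 167, 199 and 213 CPM in WRE-edited against 202, 146 and 214 CPM in Rosa26-edited libraries of r770, and 226 CPM against 215 and 218 CPM in r595. The WRE-edited libraries of r711 had 207 and 180 CPM. Apart from Rosa26-edited 2, the lowest of the 11, the Rosa26-edited libraries lay within a narrow band. Its log2 fold change was 0.05 ± 0.14 (SE; 95% interval -0.24 to 0.34; edgeR adjusted p = 0.904). After centring each run on its own mean, Slc16a10 varied by 0.16 in log2 CPM (root mean square over 11 libraries), and 17.7% of the genes tested varied less.

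All 11 listed carriers of thyroid hormone and partner subunits were measured, and Slc16a10 was the fifth most abundant per length. Slco1b2, an organic anion carrier of the hepatocyte membrane, led with a median of 527 TPM (256 to 811). Of the 11, 6 had positive and 5 negative log2 fold changes with a median of 0.05, and 0 passed in edgeR or DESeq2. With the unadjusted p under 0.05, 0 were higher and 2 lower, where 4.95% and 5.14% of all genes were. These were Slco1b2 (log2 fold change -0.53 ± 0.19; edgeR adjusted p = 0.441) and Slco1a1, another organic anion carrier (-0.44 ± 0.20; edgeR adjusted p = 0.473).

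Neither receptor passed the test. Thra had 5.97, 5.96 and 5.29 CPM in WRE-edited against 7.56, 5.40 and 6.49 CPM in Rosa26-edited libraries of r770. In r595 it had 6.80 CPM against 5.25 and 5.43 CPM, and in r711 6.09 and 4.04 CPM in the WRE-edited libraries. The groups overlapped in r770 and the single WRE-edited library of r595 was the higher, with all values between 4.04 and 7.56 CPM. The log2 fold change of Thra was -0.01 ± 0.18 (SE; 95% interval -0.40 to 0.37; edgeR adjusted p = 0.984).

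Thrb had 28.0, 24.6 and 18.5 CPM in WRE-edited against 26.1, 20.1 and 27.4 CPM in Rosa26-edited libraries of r770. In r595 it had 20.6 CPM against 30.1 and 24.6 CPM, and in r711 31.9 and 25.7 CPM in the WRE-edited libraries. The highest and the lowest value were both in WRE-edited libraries. Its log2 fold change was -0.16 ± 0.16 (SE; 95% interval -0.51 to 0.19; edgeR adjusted p = 0.734). Per transcript length, Thrb was above Thra in 11 of 11 libraries, by 2.82 ± 0.49 times in WRE-edited (SD, n = 6) and 2.68 ± 0.96 times in Rosa26-edited libraries (SD, n = 5). Over the 9 libraries of runs with both groups, the log2 of this ratio differed by 0.05 (WRE-edited minus Rosa26-edited; exact permutation within runs, two-sided p = 0.850, where the smallest p that 60 arrangements allow is 0.0167).

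Thra shares bases 98767932 to 98769006 of chromosome 11 (1075 bases) with Nr1d1, a gene on the opposite strand that encodes a repressor of the circadian clock. No source used here gives the strand setting of the counting, and without strand the reads of that stretch cannot be told apart. Nr1d1 itself ran from 0.491 CPM in WRE-edited 3 to 25.0 CPM in Rosa26-edited 1, a 50.9-fold span. In the 4 libraries where Nr1d1 was below 2 CPM (WRE-edited 3 and 6, Rosa26-edited 4 and 5), Thra had 5.29, 6.80, 5.25 and 5.43 CPM, within the range of the rest.

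Klf9 did not pass the test, and its libraries were spread widely within the WRE-edited group. It had 65.5, 95.5 and 35.5 CPM in WRE-edited against 69.01, 51.9 and 61.4 CPM in Rosa26-edited libraries of r770. In r595 it had 55.6 CPM against 46.3 and 44.2 CPM, and in r711 79.4 and 85.0 CPM in the WRE-edited libraries. The WRE-edited libraries of r770 held both the highest and the lowest value of all 11. The log2 fold change of Klf9 was 0.17 ± 0.22 (SE; 95% interval -0.32 to 0.65; edgeR adjusted p = 0.796), and it was -0.06 without WRE-edited 2 and 0.37 without WRE-edited 3.

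Klf9 is also known as an output of the clock and of glucocorticoids, and clock genes differed widely between libraries of the same group. WRE-edited 3, lowest in Klf9, had 0.491 CPM of Nr1d1 where the other libraries of r770 had 15.3 and 11.6 CPM (WRE-edited) and 25.0, 10.04 and 10.99 CPM (Rosa26-edited). The 3 libraries of r595 had Nr1d1 at 0.745 CPM in the WRE-edited library and at 1.85 and 0.771 CPM in the Rosa26-edited libraries, while their Klf9 lay between 44.2 and 55.6 CPM. Arntl, the clock activator that Nr1d1 represses, was highest in WRE-edited 6 (42.8 CPM) and lowest in WRE-edited 5 (3.39 CPM), both of them WRE-edited. Between the groups 0 of 13 measured clock genes passed in edgeR, with 0 at an unadjusted p under 0.05 and 0 in DESeq2, and the median log2 fold change was 0.03. Nr1d1 had -0.76 ± 0.75 (edgeR adjusted p = 0.728), Cry1, a clock repressor, 0.74 ± 0.38 (adjusted p = 0.531), and Clock, the partner of the Arntl protein, -0.27 ± 0.17 (adjusted p = 0.588). Of 6 glucocorticoid response genes 0 passed in edgeR or DESeq2. At an unadjusted p under 0.05 in edgeR, 1 was higher and 0 lower, where 4.95% and 5.14% of all genes were. The higher one was the chaperone gene Fkbp5 (0.61 ± 0.26, edgeR adjusted p = 0.468). The sources used here do not give the time of day of collection, and the part of the clock in the values of Klf9 was not tested.

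**Figure D2:**
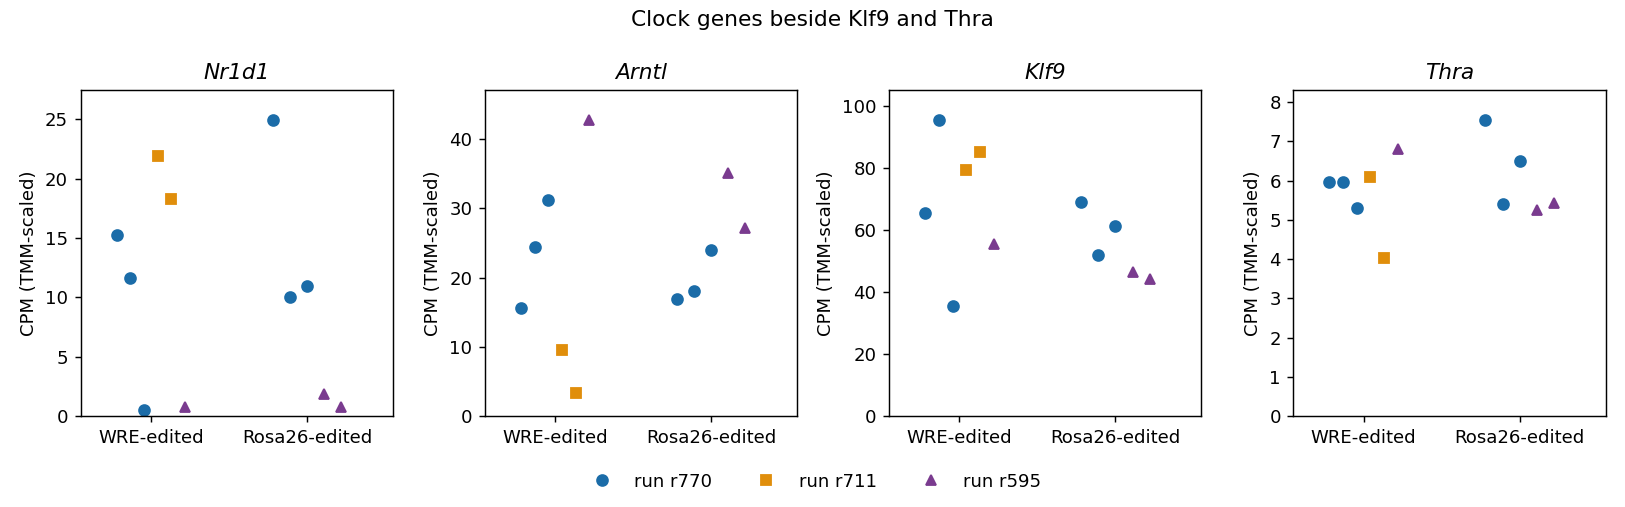
CPM of Nr1d1, Arntl, Klf9 and Thra in each library, with WRE-edited left of Rosa26-edited and the run as colour and shape. Nr1d1 was between 0.491 and 1.85 CPM in WRE-edited 3 and in the 3 libraries of r595 and at 10.04 CPM or above in the rest, while Thra stayed between 4.04 and 7.56 CPM.

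Hr had a lower mean in the WRE-edited libraries (0.547 ± 0.195 CPM, SD, n = 6) than in the Rosa26-edited ones (1.33 ± 1.21 CPM, SD, n = 5), did not pass the test, and its difference was smaller without 1 control library. In r770 it had 0.805, 0.318 and 0.386 CPM in WRE-edited against 0.892, 1.13 and 0.714 CPM in Rosa26-edited libraries, from 22, 11 and 11 counts against 30, 37 and 20. In r595 it had 0.658 CPM (15 counts) against 0.444 and 3.45 CPM (12 and 94 counts), and in r711 0.428 and 0.687 CPM (9 and 17 counts) in the WRE-edited libraries. Rosa26-edited 5 stood 3.06 times above the next library, and without it the groups still overlapped, since Rosa26-edited 3 lay below WRE-edited 1 and Rosa26-edited 4 below WRE-edited 1, 5 and 6. The log2 fold change of Hr was -1.08 ± 0.56 (SE; 95% interval -2.28 to 0.13; unadjusted p = 0.0757, adjusted p = 0.528 in edgeR). Without Rosa26-edited 5 it was -0.53 (edgeR adjusted p = 0.771).

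**Figure D3:**
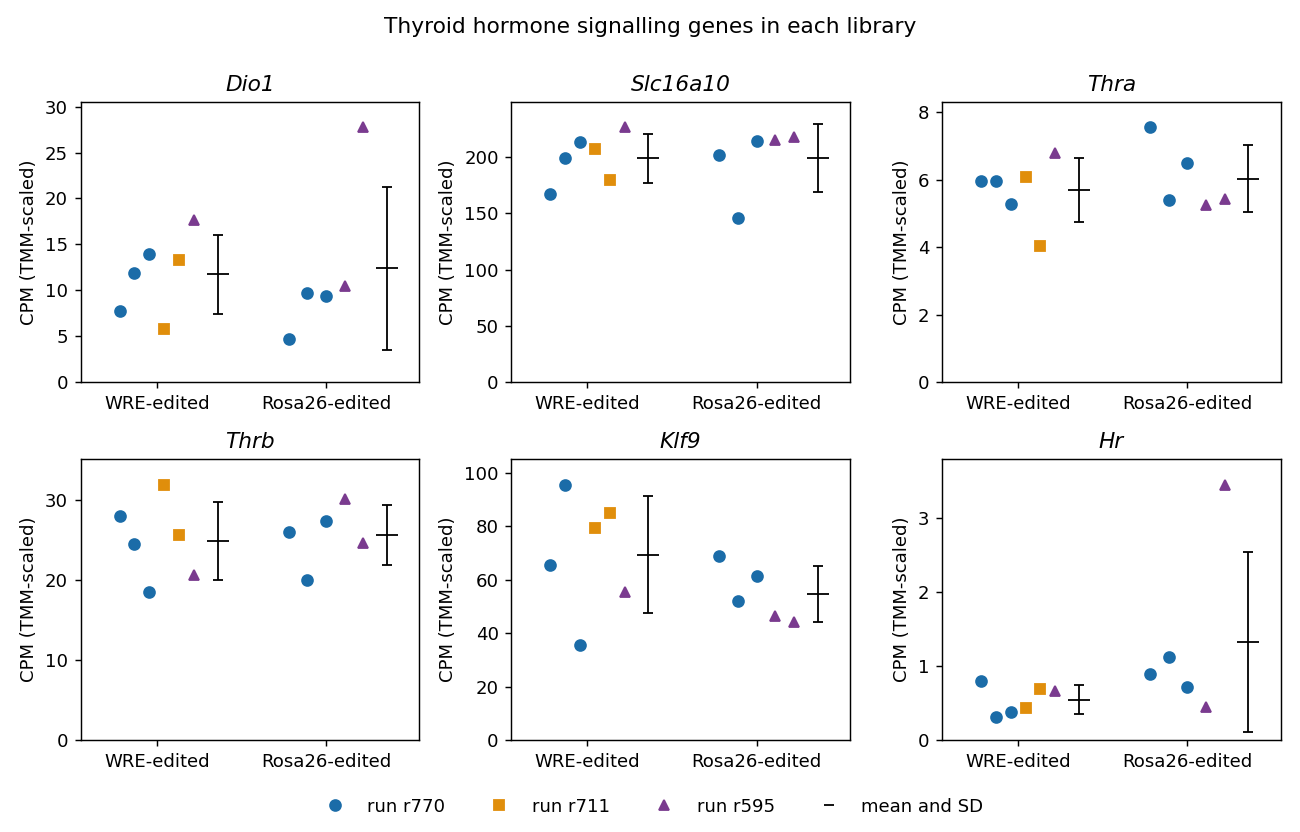
CPM of the 6 genes in each library, with WRE-edited left of Rosa26-edited, the run as colour and shape, and the mean and SD of each group. Rosa26-edited 5, of run r595, is the highest point for Dio1 (27.8 CPM) and for Hr (3.45 CPM), and the groups overlap in all 6 panels.

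Rosa26-edited 5, the highest library for both Dio1 and Hr, also had the highest sum of macrophage markers (798 CPM). Rosa26-edited 2, the next highest in Hr, had the next highest macrophage sum (506 CPM). For Dio1 the order differed, since WRE-edited 6, the next highest in Dio1 (17.7 CPM), had a macrophage sum of 235 CPM. Rosa26-edited 2 had 9.70 CPM of Dio1. Marco, a scavenger receptor gene among the 8 whose level was looked at after the sums were seen, had 370 CPM in Rosa26-edited 5, against 11.2 to 32.9 CPM in the other 10 libraries. Marco thus made up 370 of the 798 CPM in Rosa26-edited 5, and the other markers were mixed. Csf1r, Cd68, C1qa and Timd4 were higher in Rosa26-edited 5 than in Rosa26-edited 2, but Clec4f, Adgre1 and Vsig4 were lower. Rosa26-edited 2 also had the highest sum of neutrophil and lymphocyte markers (58.3 CPM), ahead of Rosa26-edited 5 (44.0 CPM), while the WRE-edited libraries had 18.2 to 29.7 CPM. All 8 macrophage markers had a negative log2 fold change, with a median of -0.42, and 0 of the 8 passed in edgeR or was under an unadjusted p of 0.05, or was called by DESeq2. Of the stellate cell and fibroblast markers 9 of 9 tested were also negative, with a median of -0.53 and 0 calls by either tool, where 6956 of all 14393 genes were negative. Their sum was highest in WRE-edited 1 (113 CPM) and Rosa26-edited 2 (108 CPM), and 2 of them were lower at an unadjusted p under 0.05, where 5.14% of all genes were. Log2 fold changes were also negative for 7 of 8 endothelial markers (median -0.23, 0 calls by either tool) and for 4 of 4 tested neutrophil and lymphocyte markers (median -0.64, 0 calls). Of 3 tested erythroid markers 2 were negative, with a median of -1.66, 0 calls in edgeR and 1 in DESeq2, and of 2 tested cholangiocyte markers 1 was. At an unadjusted p under 0.05 in edgeR, 1 erythroid marker was higher and 2 lower, and 1 cholangiocyte marker was higher. Among all genes 4.95% were higher and 5.14% lower. The erythroid sum was 22.8 CPM in Rosa26-edited 2 and 6.48 to 10.5 CPM in the other libraries. The part of these cells in the values of Hr and Dio1 was not tested.

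**Figure D4:**
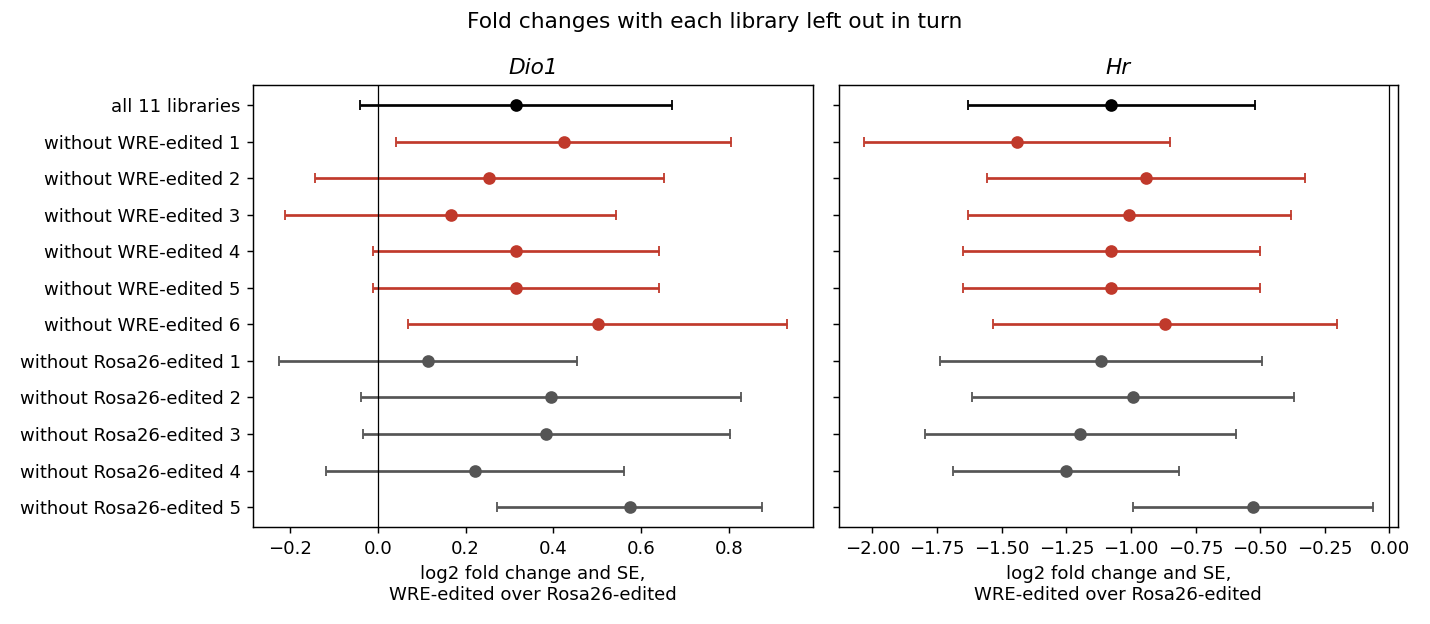
Log2 fold changes of Dio1 and Hr (WRE-edited over Rosa26-edited, points, with SE as bars) in edgeR with all 11 libraries and with each library left out in turn. Dio1 lies between 0.11 and 0.57 and Hr between -1.44 and -0.53, where the value nearest 0 for Hr is the one without Rosa26-edited 5.

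The genes most like each of the 6, by the root mean square difference in run-centred log2 CPM over the 11 libraries, were as follows. Hr was nearest to Pdgfra (0.30) and Corin (0.31), against its own spread of 0.77, which was larger than that of 94.2% of the genes tested. Dio1 was nearest to Prmt2 and Mefv (0.25 each), against its own spread of 0.53. Klf9 was nearest to Pum2 (0.14) and Ubxn7 (0.15), against 0.33. The flatter patterns of Thra (Avl9, 0.09), Thrb (Dock9, 0.07) and Slc16a10 (Serpinf2, 0.05) had closer neighbours, as genes that vary little lie near each other by this measure.

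Among the 18 listed response genes, all measured, 10 had positive and 8 negative log2 fold changes, with a median of 0.02, against 7437 and 6956 of all genes. In edgeR 0 passed, and 2 were higher and 3 lower at an unadjusted p under 0.05, where 4.95% and 5.14% of all genes were. DESeq2 called 1 of the 18, where it called 0.6% of all genes. That one was Thrsp, a promoter of fat synthesis, which had 62.3, 40.4 and 33.8 CPM in WRE-edited against 114, 67.3 and 106 CPM in Rosa26-edited libraries of r770, and 30.0 CPM against 67.9 and 45.4 CPM in r595. The WRE-edited libraries lay below the Rosa26-edited ones within r770, where 4.34% of all genes did, and within r595, which has 1 WRE-edited library. In r711 the WRE-edited libraries had 53.5 and 55.4 CPM, above Rosa26-edited 5, so the groups overlapped over all 11 libraries. The log2 fold change of Thrsp was -1.03 ± 0.21 (adjusted p = 0.262 in edgeR and 0.00220 in DESeq2). Thrsp, Hr, Klf9 and Dio1, all known to be raised by the hormone in rodents, had log2 fold changes of -1.03, -1.08, 0.17 and 0.32. The intervals of Hr (-2.28 to 0.13), Klf9 (-0.32 to 0.65) and Dio1 (-0.47 to 1.10) included 0. The signs of Hr, Klf9 and Dio1 were thus not settled, and a shared direction was not tested.

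Cyp7a1, which opens the main route of bile acid synthesis, had a log2 fold change of -0.61 ± 0.23 (edgeR adjusted p = 0.441). Bcl3, a regulator of NF-κB, had 0.72 ± 0.20 (adjusted p = 0.384), and Cpt1a, which admits fatty acids to mitochondria and was named after its values were seen, 0.37 ± 0.16 (adjusted p = 0.471). For Cyp7a1 the difference was -0.88 ± 0.25 within r770 and -0.04 ± 0.37 within r595. Me1 (0.09 ± 0.15), Fasn (0.04 ± 0.26), Acaca (-0.08 ± 0.19) and Gpd2 (0.005 ± 0.14, SE) lay within 0.1 of 0 on the log2 scale. These listed response genes serve fat synthesis and the shuttling of reducing equivalents, and were picked after their values were seen. Within r770 and r595 they had -0.07 and 0.45 (Me1), 0.12 and -0.15 (Fasn), 0.09 and -0.47 (Acaca) and -0.08 and 0.21 (Gpd2). With these errors, values near 0 do not show that a gene was unchanged.

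Among receptor partners and cofactors 0 genes passed in edgeR or DESeq2. Most log2 fold changes were positive (2 of 3 partners), where 7437 of all 14393 genes were positive. Rxra, the main retinoid X receptor of liver, had 115, 201 and 158 CPM in WRE-edited against 109, 86.7 and 156 CPM in Rosa26-edited libraries of r770, a log2 fold change over both runs of 0.50 ± 0.19 (edgeR adjusted p = 0.441). WRE-edited 1 lay below Rosa26-edited 3, so the groups overlapped there. Of 6 corepressor genes 5 were positive with a median of 0.16, where the median over all genes was 0.01. At an unadjusted p under 0.05 in edgeR, 1 was higher, where 4.95% of all genes were. It was Gps2, a subunit of the corepressor complex (0.36 ± 0.16, edgeR adjusted p = 0.479). Gps2 had the other sign in 2 of 22 alternatives. Of 6 coactivator genes 5 were positive with a median of 0.15 and 0 were at an unadjusted p under 0.05, with Med1, a Mediator subunit, at 0.18 ± 0.13 and Crebbp, a histone acetyltransferase, at 0.37 ± 0.30.

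Genes that carry and clear the hormone or serve Dio1 likewise had 0 calls by either tool. Among plasma carriers, Serpina7, which encodes thyroxine-binding globulin, had -0.77 ± 0.44 and Alb, for albumin, -0.09 ± 0.13. Of the conjugating enzymes, Ugt1a1 had 0.35 ± 0.16 and the sulfotransferase Sult1b1 -0.43 ± 0.23. Of 5 genes for the insertion of selenocysteine, on which Dio1 depends, 3 were positive, with Sephs2 at 0.27 ± 0.14 and Secisbp2 at 0.20 ± 0.13. Hnf4a, a liver transcription factor known to act on Dio1 in mouse, had 0.32 ± 0.13, the single gene of these lists at an unadjusted p under 0.05 (edgeR adjusted p = 0.443). Over the 54 measured pathway genes other than the 6, 34 were positive with a median log2 fold change of 0.11, where 7437 of all 14393 genes were positive with a median of 0.01. At an unadjusted p under 0.05, 5 were higher and 5 lower, where 4.95% and 5.14% of all genes were. In edgeR 0 of the 54 were called and in DESeq2 1, where DESeq2 called 0.6% of all genes.

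**Figure D5:**
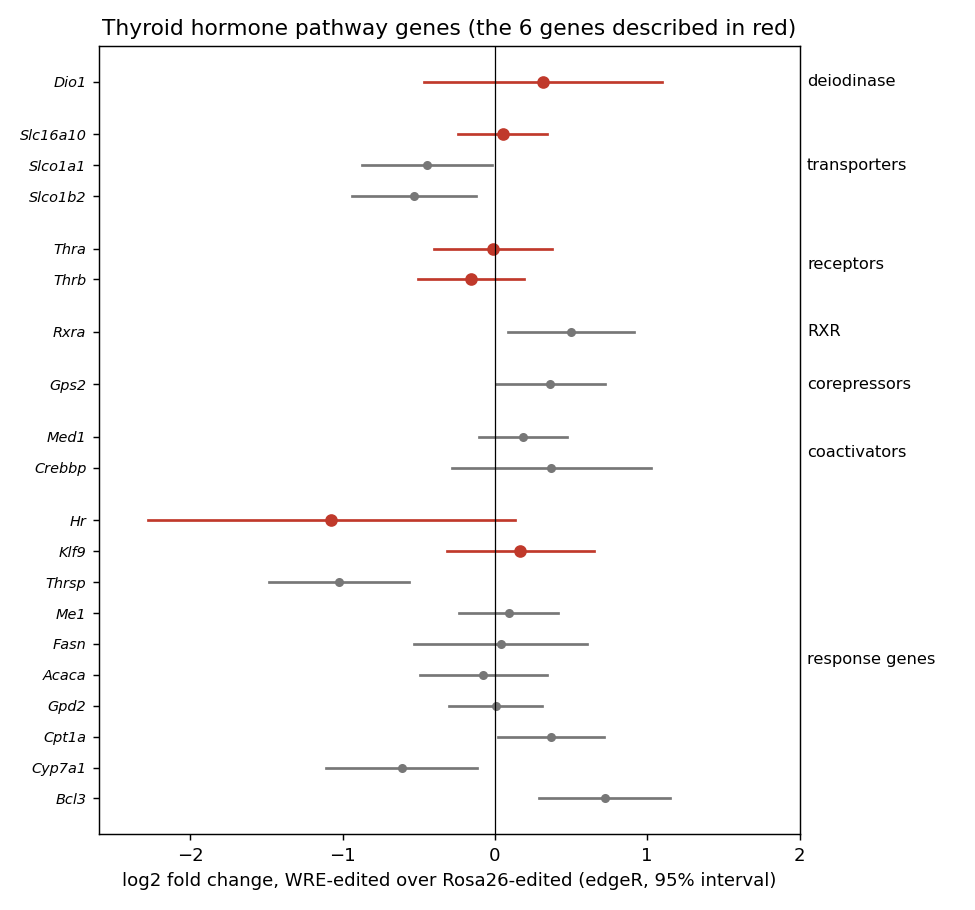
Log2 fold changes (WRE-edited over Rosa26-edited, points) with 95% intervals from edgeR for the 6 genes in red and, in grey, the carriers, receptor partners, cofactors and response genes named in the text, ordered by role. The intervals of the 6 genes in red all include 0, and Hr (-2.28 to 0.13) has the widest of them.

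Whether the difference between groups was itself different between runs was tested on the 9 libraries of r770 and r595. In edgeR 0 of 14582 genes passed (0%), 6.52% were at an unadjusted p under 0.05, and 0 of the 6 genes were. The difference of r595 minus r770 in log2 fold change was -0.61 ± 0.71 for Dio1, 0.52 ± 0.35 for Thra, -0.36 ± 0.36 for Thrb and -0.69 ± 1.25 for Hr, and DESeq2 was not run for it. With 1 WRE-edited library in r595 these errors are wide.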

How the data were processed

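The authors' deposited tables, 1 per RNA-seq library, give expected counts, TPM and effective lengths per Ensembl gene, per the file headers. The submitters' processing notes name RSEM 1.3.1, STAR 2.7.6a and the build GRCm38. Annotation release and strand setting: not given in the sources used here. A deposited matrix of normalized signal (15322 genes; DESeq2 1.26.0 and R 3.6.3, per the submitters' processing notes) served as an alternative. Deposited miRNA counts (3 WRE-edited and 3 Rosa26-edited libraries) were not used. Other deposited values, the effective lengths, were used as offsets in an alternative.

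Expected counts were rounded. Of 55536 identifiers 55450 matched a symbol, and coordinates came from RefSeq (GRCm38.p6). Genes passing filterByExpr (minimum count 10, minimum total 15), 14393, were tested in R 4.3.3 with edgeR 4.0.16 (TMM, robust quasi-likelihood, two-sided, run + group, 7 residual degrees of freedom), with Benjamini-Hochberg adjustment. The effect rests on r770 and r595, and the r711 libraries add to the estimate of the spread. SEs come from the quasi-likelihood statistic. DESeq2 1.42.0 and limma 3.58.1 were alternatives. The fit was tested on simulated data. Replicates are those of the labels. No 2 libraries of a group agreed within counting noise, so none was merged as a repeat deposit, which does not show that they are separate animals.

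Members and lists were chosen with earlier results of these data known. Genes named besides the 6 were Dio2, Dio3, Nr1d1 and Thrsp, then from each list up to 4 at an unadjusted p under 0.05 by smallest p, or else the 2 smallest, and the 2 genes nearest to each member. Other genes whose level is given describe a list's range or a library. Some listed genes are counted but not reported here by name.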

Additional observations from a re-analysis of the deposited data

Results flagged for a closer look

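Library values were examined in 14 sets (the 6 genes and the Thrb to Thra ratio in each group). In 3 sets a library stood apart from the rest of its group by Dixon's test. The test flags about 5% of independent sets from a normal distribution. These sets share libraries and pool runs, so 3 of 14 cannot be set against that share. All 3 were sets of Rosa26-edited libraries. Dio1 stood at 27.8 CPM in Rosa26-edited 5, where the other Rosa26-edited libraries had 4.70 to 10.5 CPM. Hr stood at 3.45 CPM in the same library, where the others had 0.444 to 1.13 CPM. Slc16a10 stood low, at 146 CPM, in Rosa26-edited 2, where the others had 202 to 218 CPM.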

How the results depend on the processing

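Each log2 fold change of the 6 genes was recomputed under 22 alternatives. Of the 132 values 0 passed the threshold, the lowest adjusted p was 0.290, 121 kept their direction and 11 had the other sign. Before adjustment, 8 of the 132 had a p under 0.05. In the main comparison 0 of the 6 genes had, and 10.1% of all genes. Without the run term Dio1 had -0.076 and Slc16a10 -0.0017. Summing WRE-edited 4 and 6, also without it, gave -0.076 and -0.033. Leaving out 1 library at a time gave -0.18 to 0.094 for Thra, -0.061 to 0.37 for Klf9, -0.045 to 0.13 for Slc16a10, 0.11 to 0.57 for Dio1, -0.26 to -0.049 for Thrb and -1.44 to -0.53 for Hr. The log2 ratio of Thrb to Thra ranged from -0.069 to 0.23 in this way and was -0.0094 with 1 TPM added.

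Deviations of same-numbered libraries of r770 had correlations of 0.09, -0.25 and -0.10 for numbers 1, 2 and 3, against -0.11 to 0.22 for different numbers. With 3 libraries in each group, centred on their mean, this cannot settle whether the number pairs them. With a replicate block and the run term 0 genes were called higher and 2 lower, and none of the 6 was called. A replicate block in place of the run term gave Dio1 -0.059, Slc16a10 -0.034, Nr1d1 0.71, Bcl3 -0.40, Gps2 -0.20, Sult1b1 0.26 and Cry1 -0.52. Without the run term and no block Nr1d1 had 0.22, Bcl3 -0.12, Sult1b1 0.040 and Cry1 -0.13, and the summed libraries gave 0.21, -0.23, 0.022 and -0.17, with Gps2 at -0.076. Med1 had -0.070 with effective lengths as offsets and -0.078 in the authors' normalized signal with limma (log2 of signal + 1). The causes were not tested.

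Over all genes, 0 were called higher and 1 lower. DESeq2 called 17 and 66, and edgeR without a filter 132 and 318, the 6 genes not among them. Lower calls were 0 without the run term, with r770 only, without r711 and in limma, and 0 to 2 with 1 library left out. Without a filter the difference between runs was called for 251 genes. Without a filter edgeR called Nr1d1, Thrsp, Bcl3, Cyp7a1, Serpina7, Cry1 and Fkbp5 among others, and DESeq2 called Thrsp. The counts of Hr (9 to 94) limit its precision.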
